A study of Mus musculus with 2 samples.

Results

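The 9 immediate-early genes Fos, Fosb, Jun, Junb, Egr1, Atf3, Nr4a1, Ier2 and Zfp36 were followed through 2 single-cell libraries of mouse heart. The 9 genes were chosen by symbol, each matched 1 row of the 55357 genes in the count tables, and all were detected in both libraries. The first library came from the Sham group, C57BL/6 mice operated without aortic constriction by the sample label but called uninjured in the series' design text, a difference that was not settled. The other came from C57BL/6 male mice that had transverse aortic constriction (TAC), a ligation of the aortic arch that puts the left ventricle under pressure load, at 8 weeks of age and were kept for 6 weeks. Each library combined cells of 3 to 5 hearts, the hearts were not marked, and the labels give age and sex for the TAC mice only, while the study's text says that its mice were male. There was 1 library per condition. No difference between Sham and TAC could therefore be tested, and every interval below is a 95% interval that covers counting error only, between these 2 libraries and not between conditions.

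Immediate-early genes are transcribed within minutes of a stimulus, from factors already present in the cell, and without new protein synthesis. Fos and Fosb proteins pair with Jun and Junb proteins to form AP-1, a transcription factor of the basic leucine zipper type, and Atf3 is a stress-induced relative of them. Egr1 is a zinc finger transcription factor induced by growth factors and mechanical load, Nr4a1 is an orphan nuclear receptor, Ier2 is a small nuclear protein, and Zfp36 (tristetraprolin) binds AU-rich elements of short-lived mRNAs and speeds their decay. In the heart these genes are known to respond to stretch and pressure soon after its onset, and tissue dissociation is also known to induce them. How far dissociation contributed to the levels here was not tested.

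The promoters of Fos, Jun and Nr4a1 are shown because their genes behaved differently in these libraries: among the 5 large cell types Fos was highest in macrophages, Jun was highest in endothelial cells and was lower in TAC cardiomyocytes, and Nr4a1 was higher in TAC fibroblasts and endothelial cells. RefSeq promoters (build GRCm38.p6) were available for 7 of the 9 genes, and the 250 bases before the start were searched on both strands. Capitals mark the matched letters. The Fos promoter, chr12:85473640-85473889 on the plus strand, held the cyclic AMP response element half-site TGACGT 66 to 61 bases before the start and TATAAA 33 to 28 bases before it. The Jun promoter, chr4:95052223-95052472 on the minus strand, held TGACATCA 45 to 38 bases before the start. The Nr4a1 promoter, chr15:101266596-101266845 on the plus strand, held TGCGTCA 4 times and the EGR motif GCGNGGGCG once, as its reverse complement. Unlike those of Fos and Jun, this stretch lies inside the gene's span in GENCODE M21 (chr15:101254269-101274795), before an internal start.
Fos: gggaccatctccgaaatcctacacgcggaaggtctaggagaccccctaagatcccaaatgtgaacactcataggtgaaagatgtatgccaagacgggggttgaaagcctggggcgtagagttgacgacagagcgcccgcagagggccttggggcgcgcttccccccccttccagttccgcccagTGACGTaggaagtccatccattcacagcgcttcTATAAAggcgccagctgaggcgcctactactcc
Jun: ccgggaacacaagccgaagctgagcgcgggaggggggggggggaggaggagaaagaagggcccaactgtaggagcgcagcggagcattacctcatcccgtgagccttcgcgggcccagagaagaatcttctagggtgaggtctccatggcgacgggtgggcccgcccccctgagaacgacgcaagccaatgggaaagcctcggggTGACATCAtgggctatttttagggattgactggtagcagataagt
Nr4a1: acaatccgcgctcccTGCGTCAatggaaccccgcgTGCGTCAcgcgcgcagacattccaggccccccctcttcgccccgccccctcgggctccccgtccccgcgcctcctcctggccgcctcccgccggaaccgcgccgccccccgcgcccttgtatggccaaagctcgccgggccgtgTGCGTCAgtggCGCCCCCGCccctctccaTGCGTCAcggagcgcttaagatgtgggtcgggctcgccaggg

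The same letters occurred in many other promoters. TGACGT stood in 6.47% of the 32851 promoter windows of the same length and in 2 of the 7 members (Fos and Atf3), and TATAAA in 12.4% of the windows and in Fos. GCGNGGGCG stood in 4.7% and in 3 members (Fosb, Nr4a1 and Zfp36), and the CArG box, the binding motif of serum response factor, in 1.47% and in Zfp36. TGCGTCA stood in 1.75% and in 2 members (Fosb and Nr4a1), and TGACATCA in 2.93% and in Jun; these last 2 motifs were chosen after the promoters had been read. The full cyclic AMP response element TGACGTCA, which contains TGACGT, stood in 1.55% of the windows, and the AP-1 motif TGANTCA in 6.75%, and neither was found in these windows of the 7 genes. In the longest annotated 3′ untranslated region the pentamer ATTTA, the core of AU-rich elements, was present in 8 of the 9 genes against 63.2% of 21707 protein-coding genes, and Ier2 had none. The longer AU-rich nonamer TTATTTATT was present in 2 of the 9, Fos and Zfp36, against 7.42% of genes. Both sites are shown since Zfp36 protein binds elements of this kind. They lay at chr12:85477103-85477132 on the plus strand (Fos) and chr7:28376950-28376979 on the minus strand (Zfp36) of GRCm38, with the nonamer in capitals.
Fos: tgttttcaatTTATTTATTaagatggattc
Zfp36: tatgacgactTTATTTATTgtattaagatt

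By GENCODE M21 (GRCm38; the build of the count tables is not given in the sources used here), the AP-1 genes lay at chr12:85473890-85477273 (Fos, plus strand), chr7:19302696-19310051 (Fosb, minus), chr4:95049034-95052222 (Jun, minus) and chr8:84974484-84978718 (Junb, minus), and Atf3 at chr1:191170296-191218039 (minus). The others lay at chr18:34859823-34864984 (Egr1, plus), chr15:101254269-101274795 (Nr4a1, plus), chr8:84661331-84662852 (Ier2, minus) and chr7:28376784-28380253 (Zfp36, minus). All are protein-coding genes, and the UMIs were counted per gene. On the opposite strand, the noncoding gene Junos overlaps Jun by 689 bases, Prdx2 overlaps Junb by 351, and the antisense gene Gm44710 overlaps Zfp36 by 1274. These 3 genes had their own UMIs (780 and 838 for Junos, 443 and 688 for Prdx2, 306 and 199 for Gm44710 in Sham and TAC cells), and whether counting used strand is not given in the sources used here.

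After removal of called doublets, 9465 Sham and 9459 TAC cells remained of 9935 and 9932 barcodes. The libraries held 28146691 and 29108986 UMIs (unique molecular identifiers, 1 per captured mRNA molecule), with medians of 1964 and 2143 per barcode. Clusters were named from marker genes and are called by the cell type they resemble: 2510 Sham and 2397 TAC cardiomyocytes, 2288 and 2130 fibroblasts, 1904 and 2252 endothelial cells, 1411 and 1347 macrophages, and 1062 and 1044 pericytes. Median depth differed between types, from 1106 UMIs in Sham endothelial cells to 4916 in TAC cardiomyocytes, and 32 barcodes occurred in both libraries. Mitochondrial genes held a median of 0.452% of the UMIs of a Sham barcode and 0.285% of a TAC barcode. In cardiomyocytes they held 0.262% of the UMIs in Sham and 0.146% in TAC. Whether whole cells or nuclei were captured was not tested. Levels are UMIs of a gene per 1000000 UMIs of the cell type. Levels are compared across cell types and libraries for 1 gene at a time. UMIs of 1 cell are not independent, so intervals are too narrow where few cells carry a gene. Cardiomyocyte marker RNA in the other 4 types, taken as a measure of RNA from outside the cell, was lower in TAC than in Sham. It was 2555 in Sham and 1794 in TAC fibroblasts, and 4797 and 3166 in endothelial cells. The same markers were also lower in the TAC cardiomyocytes themselves (80831 in Sham and 61407 in TAC). The part of that difference in the values of the other types was not tested.

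The genes were sparse. Over all barcodes the 9 genes had between 128 UMIs (Atf3) and 960 UMIs (Jun) in the Sham library, and between 66 UMIs (Fosb) and 823 UMIs (Jun) in the TAC library. Thinned to 1000 UMIs per cell, 10.9% of Sham and 17.5% of TAC fibroblasts had at least 1 member UMI, with intervals of 9.61 to 12.3% and 15.9 to 19.2%. These shares come from 1 random draw of the UMIs. They were 17.6% and 16.7% in endothelial cells (16.04% and 16.8% in another draw, the other way round), 14.8% and 16.0% in macrophages, 8.02% and 8.79% in pericytes and 6.74% and 6.25% in cardiomyocytes. Unthinned, they were 20.02% and 31.0% in fibroblasts, 19.7% and 20.7% in endothelial cells, 21.8% and 26.4% in macrophages, 11.5% and 16.5% in pericytes and 26.5% and 26.2% in cardiomyocytes, the deepest cells. No heart cell type is known to lack these genes, so no negative control exists for free RNA. Low thinned shares of single genes were found in cardiomyocytes of both libraries, with Fos in 1 of 2476 Sham and 2 of 2384 TAC cells and Egr1 in 1 and 6. Fosb was in 0 of both, which allows a share of cells with a UMI of up to 0.121% in Sham and 0.126% in TAC (3 counts). TAC pericytes had Fosb in 0 of 956 (up to 0.314%). Unthinned, Sham cardiomyocytes held 2 Fosb UMIs.

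The orders that follow are among these 5 types, since the rarer types had at most 18 UMIs of any of the 9 genes. Fos, the inducible AP-1 partner, was highest of the 5 in macrophages, at 34.4 in Sham and 34.8 in TAC. Among the rarer types it stood at 39.7 and 41.0 in smooth muscle cells, on 5 and 4 UMIs, and at 82.0 in Sham lymphatic endothelial cells, on 15 UMIs. It was 17.7 and 12.4 in endothelial cells, 9.27 and 3.12 in pericytes, 4.61 and 11.6 in fibroblasts, and 0.594 and 2.06 in cardiomyocytes, Sham first. Macrophages stood above endothelial cells 1.94-fold in Sham (1.32 to 2.89) and 2.82-fold in TAC (1.92 to 4.19). In TAC, endothelial cells and fibroblasts did not differ beyond counting error (ratio 1.07, 0.698 to 1.62). Macrophage shares, thinned, were 3.36% and 3.38%, against 0.481% and 0.835% of fibroblasts.

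Fosb, a close relative of Fos, had another order. In Sham it reached 27.6 in endothelial cells and 21.8 in pericytes, 2 types whose levels overlapped (ratio 1.26, 0.842 to 1.92), then 2.40 in fibroblasts, 1.36 in macrophages and 0.149 in cardiomyocytes. In TAC it stood at 10.2 in endothelial cells, 4.62 in fibroblasts, 1.04 in pericytes, 0.382 in macrophages and 0.229 in cardiomyocytes. The TAC value of macrophages rested on 1 UMI and that of pericytes on 2. The pericyte value of Sham rested on 40 UMIs in 9 cells, of which 1 cell held 11.

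Jun, the main AP-1 partner of Fos, varied less between types. In Sham it was 64.2 in endothelial cells, 35.7 in cardiomyocytes, 26.7 in fibroblasts, 24.9 in macrophages and 19.6 in pericytes. In TAC it was 48.8, 25.3, 28.1, 27.1 and 17.1 in the same order of types. Endothelial cells led 1.80-fold over cardiomyocytes in Sham (1.49 to 2.16) and 1.74-fold over fibroblasts in TAC (1.38 to 2.19). In cardiomyocytes, where Fos, Fosb and Egr1 were each at most 2.06, Jun was carried by 369 of 2510 Sham and 260 of 2397 TAC cells.

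Junb, which can oppose Jun within AP-1, was highest of the 5 types in fibroblasts and macrophages. In Sham these 2 types had 38.4 and 37.1 and did not differ beyond counting error (ratio 1.03, 0.796 to 1.35), while in TAC fibroblasts had 83.4 and macrophages 39.8 (ratio 2.10, 1.69 to 2.62). Endothelial cells had 23.1 and 21.01, cardiomyocytes 6.91 and 8.92, and pericytes 6.00 and 13.5. Atf3 had its highest level of the 5 types in macrophages, at 18.6 in Sham and 16.8 in TAC. Macrophages held 36.0% and 40.0% of the Atf3 UMIs of the cells kept, and the larger pool of cardiomyocytes 33.3% and 28.2%. It was 4.53 and 4.32 in endothelial cells and between 2.03 and 3.27 in each of the other 3 types of both libraries, where neighbours in the order did not differ beyond counting error.

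Egr1 was higher in fibroblasts, endothelial cells and pericytes than in macrophages and cardiomyocytes. Its Sham levels were 45.7 in endothelial cells, 39.3 in fibroblasts, 25.1 in pericytes, 4.08 in macrophages and 0.743 in cardiomyocytes. Its TAC levels were 55.5 in fibroblasts, 29.7 in endothelial cells, 27.5 in pericytes, 3.06 in macrophages and 2.06 in cardiomyocytes. Pericytes stood above macrophages 6.16-fold in Sham (2.98 to 14.3) and 9.002-fold in TAC (4.25 to 21.9). Fos and Egr1 were therefore ordered differently although both are classical early genes: macrophages led for Fos and came next to last for Egr1.

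Nr4a1 was 18.8 in Sham fibroblasts and 18.5 in Sham endothelial cells, followed by 11.5 in pericytes, 10.5 in cardiomyocytes and 9.06 in macrophages, and each neighbouring pair overlapped within counting error. In TAC it was 52.4 in fibroblasts and 51.9 in endothelial cells, 3.30-fold above the next type (2.68 to 4.07), with 15.7 in cardiomyocytes, 13.0 in macrophages and 8.83 in pericytes. The few smooth muscle cells, 49 in Sham and 43 in TAC, had higher values still, 143 (84.8 to 226) and 133 (70.9 to 228), each from 9 cells with the gene. Ier2 led among the 5 types in endothelial cells at 37.9 and 40.5. It was 15.8 and 28.1 in pericytes, 17.2 and 21.03 in macrophages, 13.5 and 22.0 in fibroblasts, and 1.86 and 2.44 in cardiomyocytes. Zfp36 led among the 5 types in macrophages at 34.0 and 35.9, then endothelial cells at 17.7 and 20.1, and lay between 9.40 and 13.1 in the other 3 types of both libraries.

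**Figure D1:**
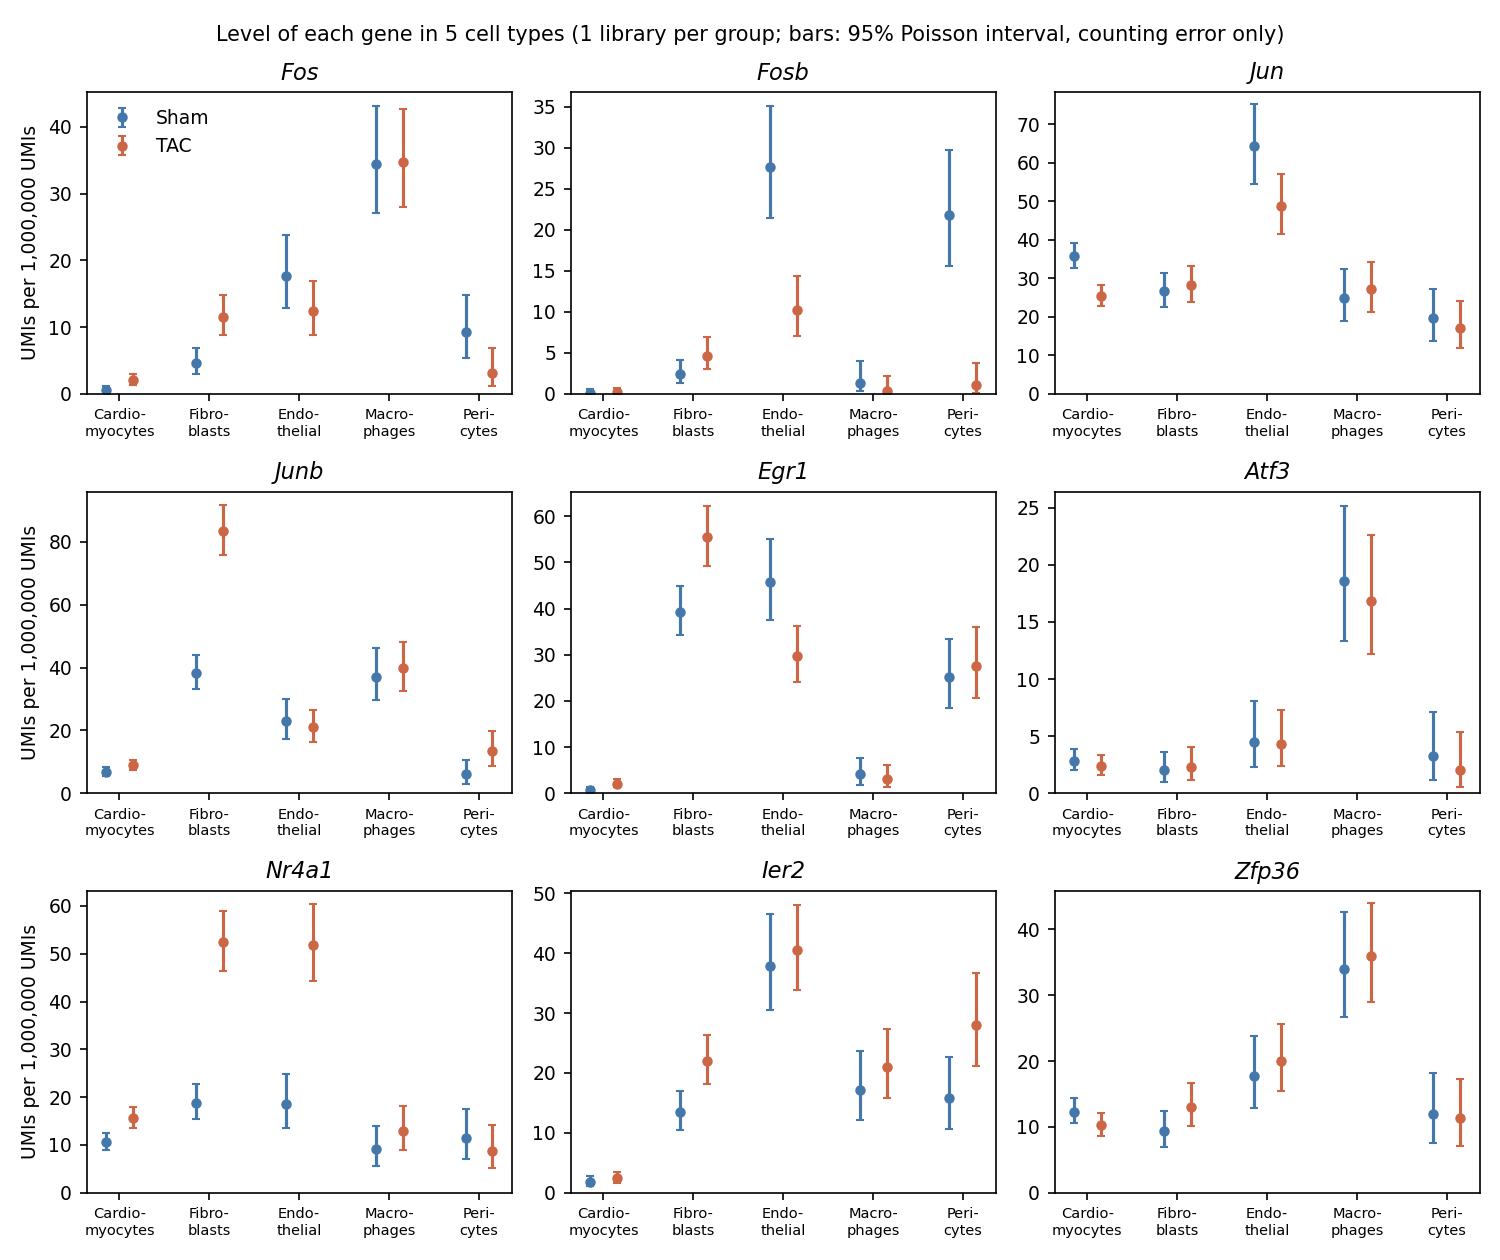
Level of each of the 9 genes (UMIs per 1000000 UMIs, linear axis from 0) in 5 cell types of the Sham (blue) and TAC (red) library, 1 library each; points are the levels and bars 95% Poisson intervals for counting error only. Of these 5 types, Fos, Atf3 and Zfp36 are highest in macrophages of both libraries, Jun, Fosb and Ier2 in endothelial cells, and Junb and Nr4a1 reach 83.4 and 52.4 in TAC fibroblasts.

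In fibroblasts the 9 genes together were higher in TAC than in Sham. Their summed level was 155 in Sham and 273 in TAC, a ratio of 1.76 (1.61 to 1.92). Ratios were above 1 for 9 of 9 genes, with a median of 1.63, though by the mean over cells of the level the Jun ratio was 0.920. Of the 9 genes 6 had at least 100 UMIs over both libraries, the minimum set for a call, and 3 of these were at least 1.5-fold higher in TAC (Junb, Nr4a1 and Ier2) and 0 at least 1.5-fold lower. Of all 10048 genes with that many UMIs in fibroblasts, 8.03% were 1.5-fold higher and 3.3% lower, with a median ratio of 1.01. The interval lay wholly above 1 for 4 of these 6 members (Junb, Egr1, Nr4a1 and Ier2), against 19.1% of all those genes.

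Nr4a1 differed most in fibroblasts, from 102 UMIs in 74 Sham cells to 272 UMIs in 168 TAC cells, a ratio of 2.79 (2.21 to 3.53). Junb went from 208 UMIs in 160 cells to 433 UMIs in 272 cells, a ratio of 2.17 (1.84 to 2.58). Both had therefore more cells with the gene as well as more UMIs in TAC, and the thinned shares were 1.49% and 4.32% for Nr4a1 and 3.18% and 6.58% for Junb. Ier2 had a ratio of 1.63 (1.21 to 2.22), Egr1 1.41 (1.18 to 1.69), and Fos, on 25 and 60 UMIs, 2.51 (1.55 to 4.17). In cells thinned to 1000 UMIs the Fos ratio was 1.43 in 1 random draw, on 15 and 21 UMIs, and 2.18 was the value expected over all draws. Jun, on 145 and 146 UMIs, had a ratio of 1.05 (0.830 to 1.33), which included 1, while the Junb interval did not. Zfp36 (1.39, 0.954 to 2.04), Fosb (1.93, 0.944 to 4.12) and Atf3 (1.14, 0.460 to 2.85) did not differ beyond counting error.

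Several properties of the libraries moved with the fibroblast values. Ribosomal protein transcripts were 1748 in Sham and 2524 in TAC fibroblasts, the heat shock list 276 and 338, and the median depth 2155 and 2266.5 UMIs. Within bands of depth the ratio of the summed level was 1.21 (0.666 to 2.14) for cells of 500 to 1000 UMIs, 1.63 (1.37 to 1.94) for 1000 to 2000, 1.60 (1.42 to 1.80) for 2000 to 4000 and 2.84 (2.30 to 3.52) above 4000. Prdx2, a peroxiredoxin gene on the opposite strand whose end overlaps that of Junb by 351 bases, was also higher in TAC fibroblasts (ratio 1.56, 1.18 to 2.05), whereas in endothelial cells Prdx2 had a ratio of 2.13 (1.33 to 3.51) and Junb 0.911 (0.630 to 1.32). The part of these properties in the result was not tested.

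The fibroblast difference was present in both large fibroblast clusters. Clusters were matched between libraries by shared leading genes. A cluster led by Rgs17 and Lvrn, 1692 Sham and 1482 TAC cells, had a summed level of 161 (148 to 174) in Sham and 273 (255 to 291) in TAC. A cluster led by Adgrd1, Gfpt2 and Pi16, 596 and 511 cells, had 143 (125 to 162) and 265 (239 to 294). Junb was 38.9 and 82.0 in the first and 37.3 and 93.3 in the second, and Nr4a1 was 16.2 and 46.8 in the first and 24.5 and 61.2 in the second. The clusters differed in composition of the members in both libraries. Egr1 was higher in the Rgs17 cluster (52.6 against 10.5 in Sham and 62.5 against 33.5 in TAC), and Jun was higher in the Pi16 cluster (42.5 against 19.4 in Sham and 43.0 against 22.1 in TAC), with no overlap of the intervals of these 4 pairs.

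A pair of smaller TAC clusters had no Sham counterpart by leading genes. The cluster of 86 cells led by Cilp, Ltbp2 and Postn, matrix genes of activated fibroblasts, had a summed level of 261 (204 to 329), near those of the large TAC clusters. The cluster of 51 cells led by Sntg1, Il1rapl1 and Nkain2 had 411 (300 to 550), but its Nr4a1 level of 164 came from 18 UMIs in 4 cells. The clusters were found in each library by itself, with the members and the related gene lists left out of the clustering.

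**Figure D2:**
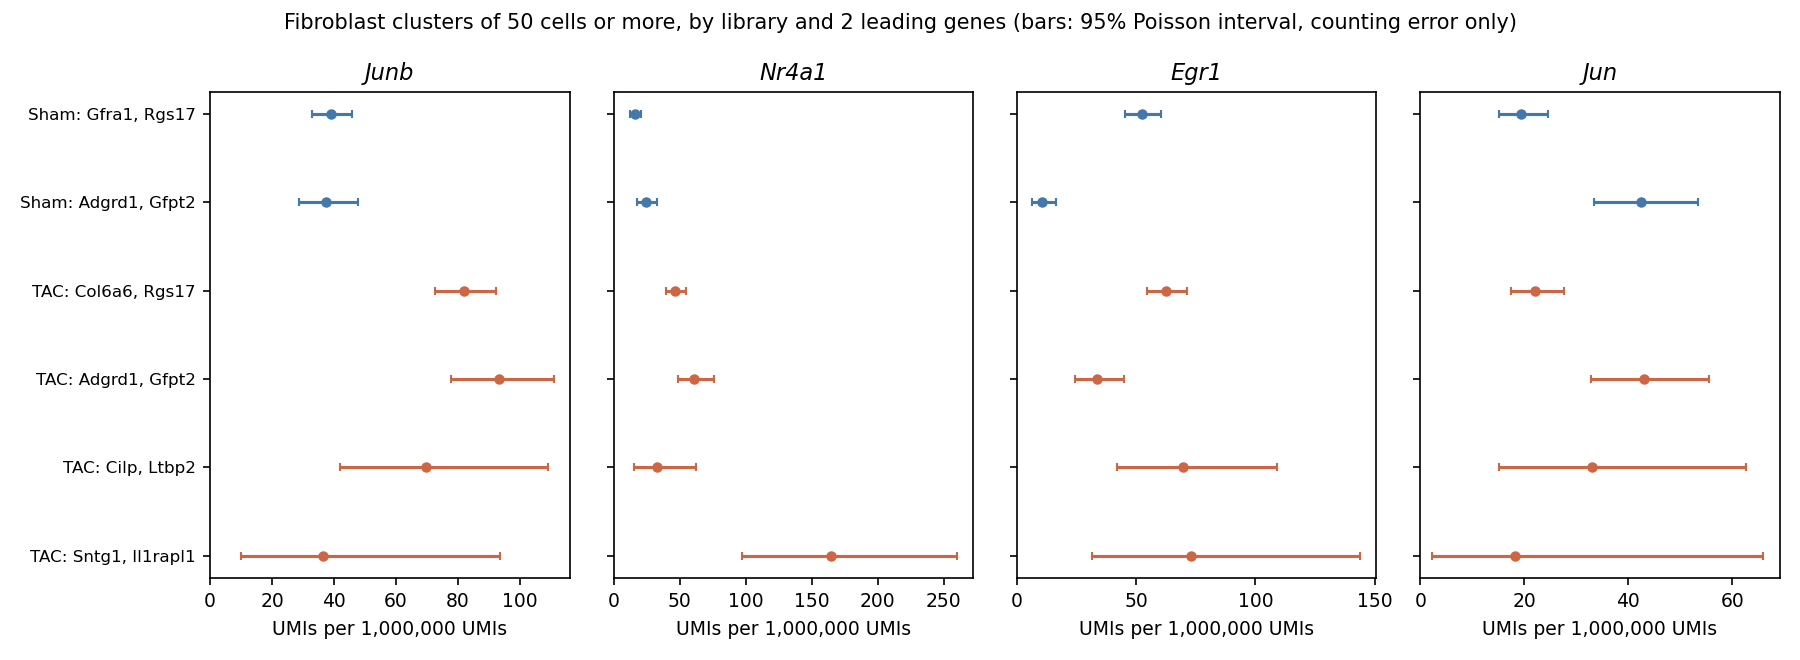
Levels (UMIs per 1000000 UMIs) of Junb, Nr4a1, Egr1 and Jun in the fibroblast clusters of each library, labelled by library and 2 leading genes; bars are 95% Poisson intervals for counting error only, and each panel has its own axis. Junb and Nr4a1 are higher in both large TAC clusters than in both Sham clusters, Egr1 is higher in the Rgs17 than in the Adgrd1 cluster of either library, and Jun is the other way round.

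Endothelial cells showed differences in both directions, and their summed level was 257 in Sham and 239 in TAC, a ratio of 0.929 (0.835 to 1.03). Of the 7 genes with enough UMIs, 1 was at least 1.5-fold higher in TAC (Nr4a1) and 2 were lower (Fosb and Egr1), where 6.82% of 7642 genes were higher and 4.62% lower. Fosb reached the minimum of 100 UMIs only through Sham, with 67 of exactly 100 UMIs there, so nothing is read from its place in the count of lower genes. Nr4a1 reached the minimum mostly through TAC, with 45 Sham and 168 TAC UMIs, so nothing is read from its place in the count of higher genes. The count of lower genes was 0 where cells needed 500 detected genes and 1 in 4 other alternatives given at the end. Nr4a1 went from 45 UMIs in 37 Sham cells to 168 UMIs in 106 TAC cells, a ratio of 2.80 (2.005 to 3.98). Fosb went from 67 UMIs in 27 cells to 33 UMIs in 21 cells, a ratio of 0.369 (0.236 to 0.569), and Egr1 from 111 to 96 UMIs in the larger TAC pool, a ratio of 0.649 (0.488 to 0.860). Without the 1% of endothelial cells with the most member UMIs the Fosb ratio was 0.627, with called doublets kept the Egr1 ratio was 0.775, and in cells thinned to 1000 UMIs Egr1 stood at 0.927 in 1 draw, with 0.851 expected over all draws. Jun stood at 0.760 (0.605 to 0.954). Ier2 (1.07, 0.812 to 1.41), Zfp36 (1.13, 0.760 to 1.71), Junb, Fos (0.698, 0.442 to 1.10) and Atf3 (0.955, 0.403 to 2.32) did not differ beyond counting error.

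Within the endothelium, the summed levels of capillary and endocardial clusters went in opposite directions, while Nr4a1 was higher in TAC in both. Capillary cells, 1675 in Sham and 1836 in TAC, had a summed level of 259 and 192, a ratio of 0.744 (0.655 to 0.844). Endocardial cells, the lining of the heart chambers, 194 and 302 in number, had 235 and 415, a ratio of 1.77 (1.37 to 2.30), and the 2 intervals did not overlap. In capillary cells Fosb, on 63 Sham and 19 TAC UMIs, had a ratio of 0.255 (0.144 to 0.432). Fos, on 34 and 17 UMIs, had a ratio of 0.423 (0.222 to 0.779). In Sham, 1 cell held 11 of these Fosb and 8 of these Fos UMIs, so both intervals are too narrow. Egr1 had a ratio of 0.542 (0.389 to 0.749) and Jun 0.743 (0.578 to 0.954), while Nr4a1, on 27 and 57 UMIs, was higher at 1.79 (1.11 to 2.94). In capillary cells Fosb, Fos and Nr4a1 had fewer UMIs than the minimum set for a call. In endocardial cells Nr4a1 went from 14 UMIs in 9 cells to 101 UMIs in 48 cells, a level of 41.1 in Sham and 151 in TAC and a ratio of 3.68 (2.10 to 6.98). Nr4a1 was thus detected, unthinned, in 4.64% of Sham and 15.9% of TAC endocardial cells, at median depths of 1534.5 and 2066 UMIs. The other endocardial intervals included 1. Endocardial cells made up 10.2% of the Sham and 13.4% of the TAC endothelial cells, and the part of this shift in the endothelial Nr4a1 ratio of 2.80 was not tested. The arterial cells, 35 and 114, gave 17 and 33 member UMIs, of which 0 were of Egr1, and their Nr4a1 ratio of 0.782 was poorly determined (0.226 to 3.42).

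**Figure D3:**
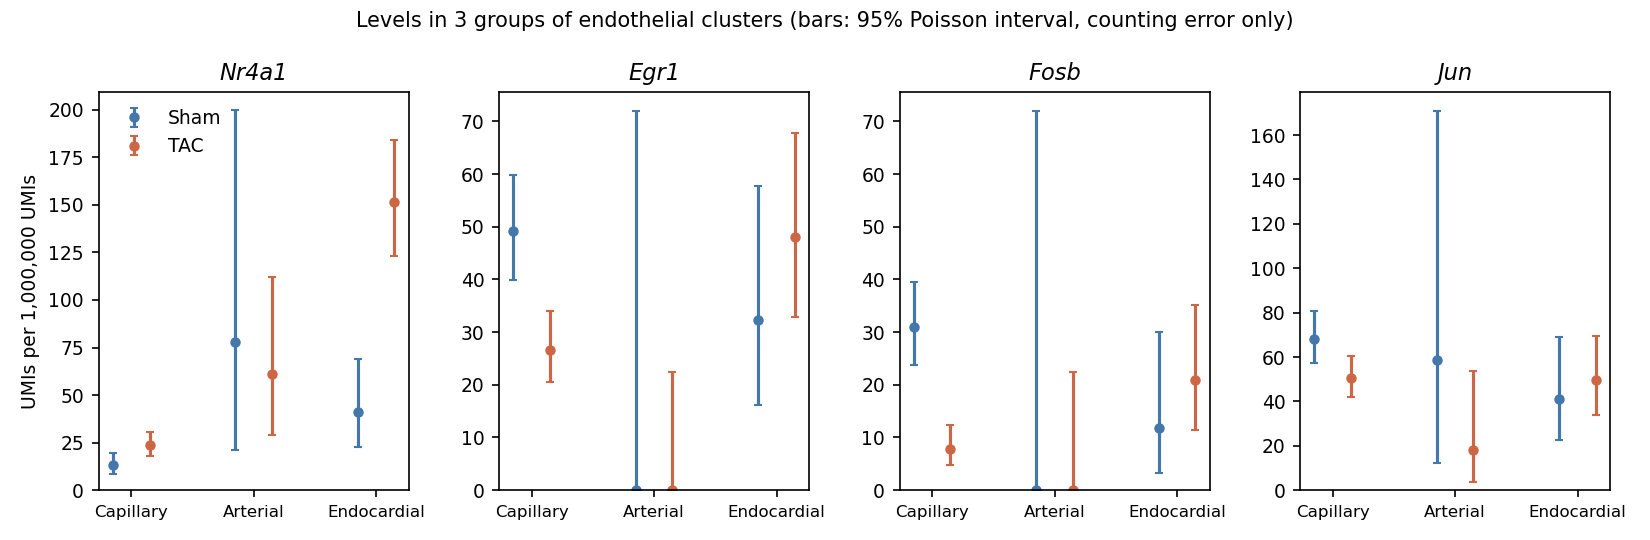
Levels (UMIs per 1000000 UMIs, linear axes from 0) of Nr4a1, Egr1, Fosb and Jun in capillary, arterial and endocardial clusters of the Sham (blue) and TAC (red) library; bars are 95% Poisson intervals for counting error only. Nr4a1 reaches 151 in TAC endocardial cells against 41.1 in Sham, and Egr1, Fosb and Jun are lower in TAC than in Sham capillary cells.

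Cardiomyocytes, the contracting cells that bear the load, had a summed level of 71.7 in Sham and 69.4 in TAC, a ratio of 0.969 (0.884 to 1.06). Of the 4 genes with enough UMIs, 0 were at least 1.5-fold higher and 0 lower, against 10.2% and 5.85% of 11234 genes. Jun was lower in TAC, with 481 and 332 UMIs and a ratio of 0.709 (0.615 to 0.817), and Nr4a1 higher, with 142 and 206 UMIs and a ratio of 1.49 (1.20 to 1.86), just under the 1.5-fold limit. Junos, a noncoding gene on the opposite strand that overlaps Jun by 689 bases, had a ratio of 1.20 (1.04 to 1.37) in the same cells. Fos, on 8 and 27 UMIs, had a ratio of 3.47 (1.53 to 8.83), and Egr1, on 10 and 27 UMIs, of 2.77 (1.30 to 6.42). In TAC, 1 cell held 7 of the 27 Egr1 UMIs, and without the 1% of cells with the most member UMIs the Egr1 ratio was 1.02 and the Fos ratio 2.18. In 1 draw of cells thinned to 1000 UMIs, Fos had 2 Sham and 3 TAC UMIs (ratio 1.56) and Egr1 had 2 and 1 (ratio 0.519). These were too few to read a direction from, and the values expected over all draws were 3.14 for Egr1 and 3.49 for Fos. Junb (1.29, 0.976 to 1.72) and Zfp36 (0.835, 0.661 to 1.05) did not differ beyond counting error. Marker transcripts of the cardiomyocytes themselves were 80831 in Sham and 61407 in TAC, and Malat1, a nuclear noncoding RNA, was 131008 and 162445, differences whose part in these ratios was not tested.

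In macrophages the 9 intervals all included 1. Of the 4 members with at least 100 UMIs, 0 had an interval wholly above or below 1, against 18.7% above and 18.5% below among all genes with as many UMIs. The other members had fewer UMIs and are not set against these shares. The summed level was 181 in Sham and 192 in TAC (ratio 1.06, 0.930 to 1.21), and of the 4 genes with enough UMIs 0 passed the 1.5-fold limit in either direction, against 7.16% of 7054 genes higher and 6.51% lower. Fos had a ratio of 1.01 (0.737 to 1.39), Zfp36 1.06 (0.773 to 1.45), Junb 1.07 (0.794 to 1.45) and Jun 1.09 (0.756 to 1.58). The upper limits of these 4 intervals were at most 1.58, whereas Nr4a1 (1.44, 0.803 to 2.63) and Ier2 (1.22, 0.794 to 1.90) were measured less closely. In pericytes, where 0 genes reached 100 UMIs (4.49% of 5703 genes were 1.5-fold higher and 3.86% lower), the summed ratio was 0.907 (0.749 to 1.10). Fosb stood at 40 and 2 UMIs, a ratio of 0.0476 (0.00558 to 0.184, but 0.478 without the 1% of cells with the most member UMIs), Fos at 17 and 6 UMIs (0.336, 0.109 to 0.894, but 1.15 without the same cells), Junb at 11 and 26 UMIs (2.25, 1.07 to 5.05) and Ier2 at 29 and 54 UMIs (1.77, 1.11 to 2.89). In Sham, 3 pericytes with 10 or more member UMIs held 18.9% of the member UMIs of the type, and 0 TAC pericytes had as many. Among the rarer types, Fos in Sham lymphatic endothelial cells had 15 UMIs, of which 14 lay in 1 cell.

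**Figure D4:**
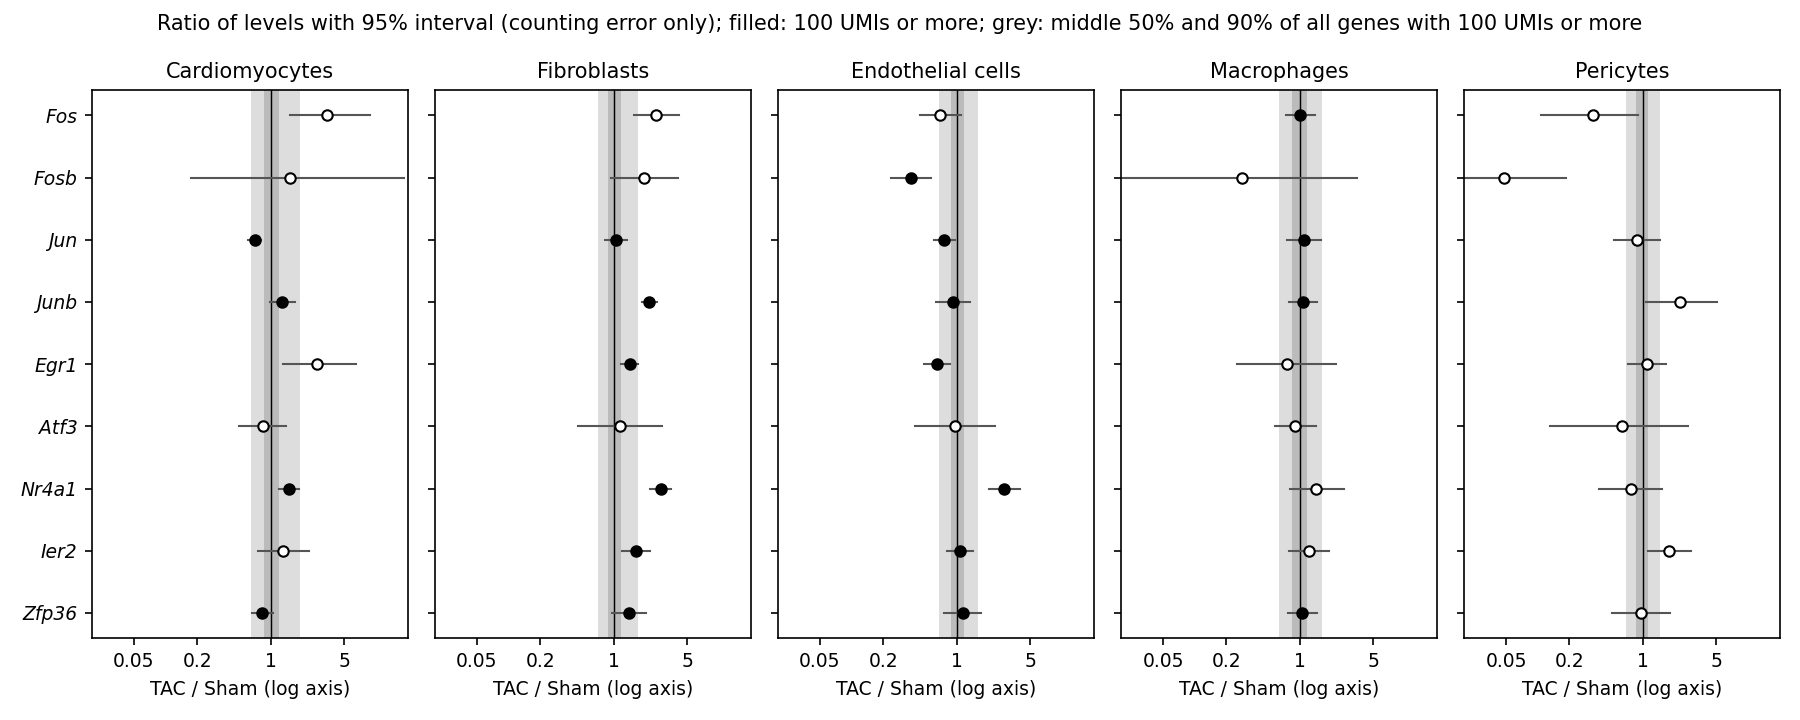
Ratio of the TAC to the Sham level (log axis) of each gene in 5 cell types with its 95% interval for counting error; filled points have 100 or more UMIs over both libraries, and grey bands span the middle 50% and 90% of all genes with as many UMIs. Intervals wider than a panel end at its edge. Junb and Nr4a1 in fibroblasts (2.17 and 2.79) lie to the right of the bands and Egr1 in endothelial cells (0.649) to the left. The macrophage points with 100 or more UMIs lie near 1. Among endothelial points, Fosb (0.369) reached 100 UMIs only through Sham and Nr4a1 (2.80) mostly through TAC. Nothing is read from their place against the bands.

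Cells with several members at once were rare. At 1000 UMIs per cell, 11 of 2078 Sham fibroblasts had 3 or more of the 9 genes, where the product of the single-gene shares gives 0.406 cells, and 17 of 2036 TAC fibroblasts, where it gives 1.65. The figures were 8 against 0.965 and 10 against 1.16 in Sham and TAC endothelial cells, 3 against 0.422 and 1 against 0.559 in macrophages, 3 against 0.0654 and 0 against 0.0614 in pericytes, and 0 in the cardiomyocytes of both libraries. For 2 or more genes the figures were 2 against 3.84 in Sham and 9 against 3.98 in TAC cardiomyocytes. These products are given as a description, with no test.

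Pairs differed in how often they met in 1 cell, summed over the 5 types and both libraries. Fos and Fosb were found together in 16 cells against 0.487 from the product of the shares within each type and library, Fosb and Egr1 in 17 against 1.06, Fos and Egr1 in 26 against 2.16, and Junb and Egr1 in 47 against 9.14. Pairs with Jun varied. Jun and Nr4a1 met in 10 cells against 9.47, Jun and Ier2 in 8 against 7.98, and Jun and Junb in 14 against 10.7, whereas Fosb and Jun met in 6 against 1.67 and Jun and Zfp36 in 4 against 6.33. Fos and Jun, the partners of the best known AP-1 dimer, met in 8 cells against 4.16. The joint cells were concentrated: 6 Sham and 15 TAC fibroblasts had 10 or more member UMIs and held 8.80% and 14.2% of the member UMIs of their type, and 1 fibroblast of each library reached 21. Correlations between single genes over cells were too weak in counts this sparse to be described.

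**Figure D5:**
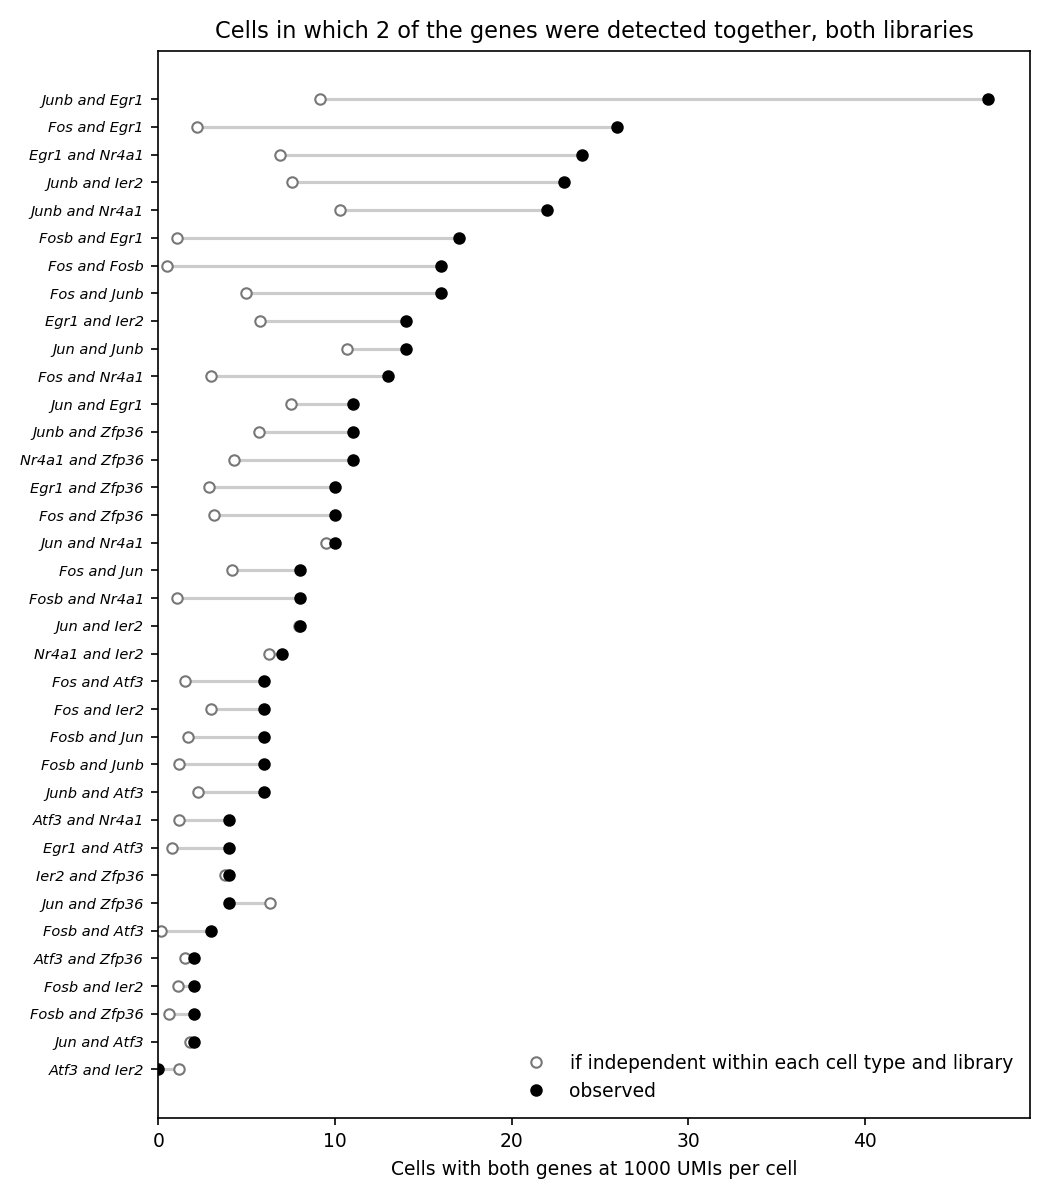
Number of cells, thinned to 1000 UMIs, in which 2 of the 9 genes were detected together (filled) and the number that the product of their shares within each cell type and library gives (open), summed over 5 cell types and both libraries. Junb and Egr1 met in 47 cells against 9.14, Fos and Fosb in 16 against 0.487, and Jun and Ier2 in 8 against 7.98.

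Other genes of these pathways were taken from lists of related genes. As above, 8.03% of all fibroblast genes with enough UMIs were 1.5-fold higher and 3.3% lower, and nothing is read from list counts this small. In fibroblasts the 10 other AP-1 and bZIP genes had 6 with enough UMIs, of which 0 were 1.5-fold higher or lower, with a median ratio of 1.05. Of the 9 further EGR, NR4A and ZFP36 family genes and their NAB corepressors, 5 had enough UMIs and 1 was higher, Nr4a3, the sister receptor of Nr4a1, with 27 and 80 UMIs (3.09, 1.98 to 4.98). Of 37 other early response genes 20 had enough UMIs, with 2 higher, 0 lower and a median of 1.14. Of 17 upstream kinases and factors 14 had enough UMIs, with 0 past the limit and a median of 1.02. Of the known Zfp36 target mRNAs only the chemokines Ccl2 (3.22, 2.19 to 4.83) and Cxcl1 (3.04, 2.24 to 4.19) had enough UMIs. Nr4a3 and Ccl2 (36 and 111 UMIs) reached that number mostly through TAC, so no count is read from these genes. Of 7 heat shock and chaperone genes with enough UMIs, 1 was higher.

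In the other types genes of the lists lay on both sides of 1, beside shares of all genes of 6.82% higher and 4.62% lower in endothelial cells, 10.2% and 5.85% in cardiomyocytes, 7.16% and 6.51% in macrophages and 4.49% and 3.86% in pericytes. In endothelial cells 3 of 19 early response genes were higher, among them Klf2, a flow-responsive factor (1.54, 1.35 to 1.75), and Klf10 (1.65, 1.30 to 2.10), and 2 were lower, the clock gene Per1 (0.400, 0.330 to 0.484) and the ERK phosphatase Dusp6 (0.643, 0.428 to 0.963). In cardiomyocytes 2 of 23 were higher, Klf10 from 70 to 278 UMIs (4.08, 3.13 to 5.38) and Ier3 (1.90, 1.41 to 2.60), and 4 lower, including the stress genes Gadd45b (0.431, 0.300 to 0.611) and Ppp1r15a (0.469, 0.359 to 0.610). In macrophages the Zfp36 target Il1b was higher (2.72, 1.96 to 3.83), as was Errfi1, a feedback inhibitor of the EGF receptor (2.29, 1.58 to 3.36), and Per1 was lower (0.509, 0.429 to 0.602). Il1b (49 and 158 UMIs) and Errfi1 (41 and 111 UMIs) reached 100 UMIs mostly through TAC, and 1 TAC cell held 23.4% of the Errfi1 UMIs there, so no count is read from them. In pericytes the EGR corepressor Nab1 was higher (1.54, 1.22 to 1.95) and the NF-kappaB inhibitor Nfkbia lower (0.600, 0.406 to 0.880). Gadd45b (112 Sham and 47 TAC UMIs), Dusp6 (56 and 48) and Nfkbia (73 and 46) reached 100 UMIs only through their higher Sham level. No count is read from these genes either. The upstream kinases and factors had 1 gene higher and 1 lower in cardiomyocytes and 0 past the limit in the other 4 types.

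Over the 10 combinations of cell type and library, the genes whose level on a log scale followed the mean of the members most closely among 7130 genes were Mitd1, Rpl26, Armc8, Rps21, Tmc6, Rplp1, Rps15, Nucb1, Pald1 and Rps4x, with Pearson's r from 0.973 down to 0.960. Rpl26, Rps21, Rplp1, Rps15 and Rps4x among them encode ribosomal proteins. Among the members, Ier2 (0.858) and Fos (0.727) followed the mean of the others most closely, and Atf3 (0.198) and Jun (0.343) least. The 10 points share 2 libraries and differ in depth, and the values are a description.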

How the data were processed

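Hearts were dissociated and single cells were captured on the 10x Chromium 3′ platform, kit V3 by the sample labels. The authors deposited raw counts, the number of UMIs of each gene in each barcode, made with Cell Ranger 7.1.0 by the submitters' processing notes. The study's methods name an earlier kit and an earlier Cell Ranger version, a difference that was not settled. The 9 members, the gene lists and the comparisons were chosen with earlier results of these data known.

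Counts were read with scanpy 1.11.5, anndata 0.12.19, scipy 1.17.1, numpy 2.4.6, pandas 2.3.3 and igraph 0.11.9 in Python 3.11.15. Barcodes with under 200 genes were removed (1 per library), then 469 Sham (4.72%) and 472 TAC (4.75%) doublets called by Scrublet at 0.8% expected per 1000 cells. Each library was clustered by itself (2000 variable genes, 30 components, 15 neighbours, Leiden resolution 1, seed 1), with the members and related lists left out. Clusters were named from at least 3 fixed markers, and 9 Sham cells with cell cycle genes stayed unnamed. Levels carry exact Poisson intervals, shares Clopper-Pearson intervals and ratios conditional binomial intervals. Shares were taken after thinning each cell to 1000 UMIs, leaving out shallower cells. The ratio expected over all draws of this thinning was computed from each cell's share of UMIs. Named were the members in each major type, up to 3 list genes per direction and type with at least 100 UMIs and a 1.5-fold difference, and the 10 genes most like the members. Likeness used log2 of the level plus 1. The functions were tested on simulated data. Alternatives varied the filters, doublets, clustering, denominator, thinning, and single cells, and their effect is given at the end. Protein sequences were not used here.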

Additional observations from a re-analysis of the deposited data

Results flagged for a closer look

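Fos stood higher in TAC than in Sham cardiomyocytes (ratio 3.47) and lower in TAC than in Sham pericytes (ratio 0.336), and the first ratio was 10.3 times the second. Both intervals excluded 1, on 8 and 27 UMIs in cardiomyocytes and 17 and 6 UMIs in pericytes, and the difference between the types was not tested. Without the 1% of cells with the most member UMIs the Fos ratios were 2.18 in cardiomyocytes and 1.15 in pericytes. Averaged over all possible draws of 1000 UMIs per cell they were 3.49 and 0.299. Egr1 stood higher in TAC cardiomyocytes (ratio 2.77, on 10 and 27 UMIs) and lower in TAC endothelial cells (ratio 0.649, on 111 and 96 UMIs), and the first ratio was 4.27 times the second. This difference was not tested either. Averaged over all possible draws of 1000 UMIs per cell the ratios were 3.14 in cardiomyocytes and 0.851 in endothelial cells, and without the 1% of cells with the most member UMIs the cardiomyocyte ratio was 1.02.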

How the results depend on the processing

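No paired analysis was possible because there was only 1 library in Sham and 1 in TAC. Of 75 recomputed ratios of the summed level, 73 lay within the interval of the value reported. With no doublets removed the endothelial ratio was 1.05, and without the 1% of cells with the most member UMIs the pericyte ratio was 1.19. The fibroblast ratio lay between 1.62 and 1.88 in all 15 alternatives. Of the ratios of single genes, 605 of 615 stayed within their intervals. Of those whose interval excluded 1, 2 changed side: Fos in pericytes (1.15 without the 1% of cells with the most member UMIs; the cause was not tested) and Egr1 in cardiomyocytes (0.519 in 1 draw of cells thinned to 1000 UMIs). The Egr1 value rested on 2 Sham UMIs and 1 TAC UMI, another draw had 1 and 7, and 3.14 was expected over all draws, so no direction is read from it. Ratios whose interval included 1 also crossed 1, among them Jun in fibroblasts, which left its interval at 0.774 in the same draw with 0.913 expected over draws.

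Counts of members past 1.5-fold that moved by more than 1.5 times were these. In cardiomyocytes 1 gene was higher with no doublets removed, by the mean over cells, without the 1% of cells with the most member UMIs and without shared barcodes, and 2 with a minimum of 20 UMIs. In fibroblasts 5 were higher with a minimum of 20 UMIs and 1 with 500. In endothelial cells 0 were lower where cells needed 500 detected genes. There 1 was lower with called doublets kept, without the 1% of cells with the most member UMIs, at 2-fold, and without the 1 cell with the most UMIs of the gene. In pericytes 2 were higher (Junb and Ier2) and 2 lower (Fosb and Fos) with a minimum of 20 UMIs. These lower genes reached 20 UMIs mostly through Sham (Fosb on 40 and 2 UMIs, Fos on 17 and 6, Sham first). In cardiomyocytes Fos (8 and 27 UMIs) and Egr1 (10 and 27) reached it mostly through TAC. The share of all genes past the limit was not taken at these other settings, so nothing is read from these counts. Leaving out 1 cell, dividing by the median ratio of all genes, thinning and its expected value were chosen after seeing the data. Shares of cells with any member depended on the thinning and moved in 31 of 100 recomputations, set against a draw other than the one printed. With 1 library per condition, depth limits only how closely these libraries are described, and genes under 20 UMIs could not be followed.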

Other observations

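Among the less frequent cell types, Egr1 had 13 UMIs in 4 of 85 Sham lymphatic endothelial cells and 0 UMIs in 112 TAC cells, which allows a level of up to 11.3 UMIs per 1000000 (3 counts). Jun had 15 UMIs in 10 TAC lymphatic endothelial cells and 5 UMIs in Sham, a ratio of levels of 2.07 whose interval included 1 (0.714 to 7.26).

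Gm44710, the antisense gene at Zfp36, had 173 Sham and 74 TAC UMIs in cardiomyocytes (ratio 0.439, 0.330 to 0.580) and a ratio of 0.556 (0.329 to 0.926) in macrophages, while the Zfp36 ratios were 0.835 (0.661 to 1.05) and 1.06 (0.773 to 1.45). In fibroblasts Gm44710 lay on the other side of 1, with a ratio of 1.45 (0.926 to 2.29). Its ratio was 0.834 (0.419 to 1.67) in endothelial cells and 0.744 (0.423 to 1.30) in pericytes. Gm44710 was chosen after its values had been seen.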
